A study of Sus scrofa with 20 samples.

Results

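Fatty acid uptake and intracellular binding were followed through 10 genes in backfat and liver of the Nanchukmacdon pig: the binding proteins FABP1, FABP3, FABP4 and FABP5, the scavenger receptor CD36, and the transport proteins SLC27A1, SLC27A2, SLC27A4, SLC27A5 and SLC27A6. They were chosen by symbol and matched to pig Ensembl identifiers, and all 10 were found among the 31907 genes of the count table and passed the filter on low counts, as did 16275 genes in all. Between backfat and liver, 5 of the 10 were higher in backfat (FABP3, FABP4, FABP5, CD36 and SLC27A6), 3 were higher in liver (FABP1, SLC27A2 and SLC27A5), and 2 were not called (SLC27A1 and SLC27A4). Calls required a log2 fold change whose size was 2 or more and a false discovery rate (FDR) no higher than 0.05. Of all tested genes 22.3% were called, with 11.1% in the direction of backfat and 11.2% in that of liver, against 80.0% of the 10 members. These shares are no test, since the members were chosen with earlier results of these data known. FABP1 and CD36 were matched only through the study's list of differentially methylated and expressed genes. FABP1 and SLC27A5 passed the filter on low counts through liver, where they are high.

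Long-chain fatty acids enter cells with the help of membrane proteins and are carried through the cytosol by small lipid-binding proteins. CD36, also called fatty acid translocase, binds fatty acids at the cell surface, the SLC27A proteins (FATPs) combine transport with activation to acyl-CoA, and the FABPs carry fatty acids to sites of storage, oxidation or signalling. Adipocytes take up fatty acids mainly to store them as triglyceride, while hepatocytes oxidise them, re-esterify them for secretion and, through SLC27A5, also activate bile acids. Many of these genes are known targets of the PPAR nuclear receptors.

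Backfat (subcutaneous fat of the back) and liver were sampled from the same 5 boars, all labelled as wild type, normal and 22 months of age, with no treatment or transgene named. The study's methods give a somewhat higher average age than the labels. Poly(A) RNA of the bulk tissues was sequenced, with 1 library per tissue and boar. Each library is referred to by its tissue and the number in its column of the count table (65, 67, 69, 71 or 72). That number was taken as the number of its boar, which the labels do not give. Levels are CPM, the counts of a gene relative to all counts of a library, scaled by TMM factors over all 10 libraries, and values per group are mean ± SD with n = 5 libraries. In bulk tissue, fewer cells of a type and less RNA of a gene per cell cannot be told apart.

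The libraries held 45157114 to 61772737 counts in backfat and 43820042 to 53768601 in liver. The defining markers fitted the labels: the adipocyte hormone ADIPOQ stood at 2247 to 4842 CPM in backfat and at 0.00 to 0.0637 CPM in liver, and ALB, the albumin gene, at 8202 to 46626 CPM in liver and 0.126 to 36.4 CPM in backfat. A pair of libraries stood apart. Liver 67 had 44.5% of its counts on mitochondrial genes, against 6.38% to 20.2% in the other 9 libraries, and the lowest sum of 8 hepatocyte markers among the liver libraries (26855 CPM, liver median 94495 CPM). Backfat 69 had the highest sum of the same markers among the backfat libraries, 573 CPM against at most 217 CPM in the others, and 91.0 against at most 3.85 CPM with APOA1 left out. When each library was left out in turn, 8 members were called every time, and values without these libraries are given where they touch a result.

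The promoters of FABP1, called higher in liver, and FABP3, called higher in backfat, are shown as the 250 bases before the RefSeq transcription start on Sscrofa11.1, since methylation at CpG sites was the subject of the study. Each window is written 5′ to 3′ on the strand of its gene, with every CG in capitals.
FABP1 (chr3:57850261-57850510, plus strand): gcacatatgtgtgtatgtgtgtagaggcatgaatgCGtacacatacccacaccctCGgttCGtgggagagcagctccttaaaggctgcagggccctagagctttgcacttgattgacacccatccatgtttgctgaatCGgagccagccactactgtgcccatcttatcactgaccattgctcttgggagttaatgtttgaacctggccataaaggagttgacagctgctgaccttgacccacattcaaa
FABP3 (chr6:87950709-87950958, minus strand): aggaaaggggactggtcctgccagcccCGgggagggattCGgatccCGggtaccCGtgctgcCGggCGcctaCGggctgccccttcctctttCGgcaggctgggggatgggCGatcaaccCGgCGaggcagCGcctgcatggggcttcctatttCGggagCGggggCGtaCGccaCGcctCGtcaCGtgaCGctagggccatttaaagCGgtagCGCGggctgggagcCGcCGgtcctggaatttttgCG
The window of FABP1 held 4 CG sites and that of FABP3 held 26, around a median of 12 over 19556 windows of the same length. In the windows of CD36 and the transport proteins, CD36 held 0, SLC27A1 2, SLC27A5 4, SLC27A6 6, SLC27A4 24 and SLC27A2 25. Genes of either direction thus occurred among the windows with few and with many sites, with CD36 and SLC27A6 (called for backfat) and FABP1 and SLC27A5 (called for liver) among the former, and FABP3 (backfat) and SLC27A2 (liver) among the latter. The windows lie before the outermost RefSeq start of each gene. The most RefSeq transcripts were listed for SLC27A6 (14), CD36 (11) and SLC27A1 (7), and starts inside the genes were not examined. Methylation of these windows was not analysed here.

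A set of 5 short motifs was searched on both strands of these 8 windows. TATAAA was found in SLC27A6, 161 bases before the start on the other strand, and it occurred in 9.77% of all windows. AGGTCA, the half-site of nuclear receptors, lay 21 bases before the start of FABP1 on the other strand and 24 bases before that of SLC27A1, and 12.2% of all windows held it. The repeat AGGTCANAGGTCA, the form bound by PPAR with RXR, was in 0 of the 8 windows and in 0.0256% of all windows. GGGCGG was found in SLC27A2 and SLC27A4 (45.9% of all windows) and CCAAT in SLC27A6 (31.9%). These are matches of letters in a short window and not sites of binding.

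FABP4, the fatty acid-binding protein of adipocytes, was the most abundant member in backfat. Its gene lies at chr4:55096400-55101209 and has 4 exons. The 5 backfat libraries of boars 65, 67, 69, 71 and 72 stood at 3986, 5332, 4751, 4617 and 5489 CPM, and the liver libraries of the same boars at 3.09, 7.80, 1.19, 2.65 and 1.76 CPM. The tissues were far apart in every boar, and liver 67 was the highest of the liver libraries. Mean levels were 4835 ± 602 CPM in backfat and 3.30 ± 2.62 CPM in liver, a log2 fold change of 10.52 with a standard error of 0.70 (edgeR quasi-likelihood test, FDR 1.19e-07). Without liver 67 the log2 fold change was 11.08. The adipocyte markers were not raised in liver 67, where 7 of them summed to 55.7 CPM in a liver range of 51.6 to 81.7 CPM, while each of 6 skeletal muscle markers was highest there (188 CPM in sum, against at most 2.84 CPM in the other liver libraries). The sum of 7 endothelial markers was also highest in liver 67 (684 CPM, against at most 427 CPM), of which EGFL7 made up 408 CPM, and 5 of the 7 had their highest liver value there. Their part in the FABP4 level of that library was not tested. FABP4 alone took 0.620% of all backfat counts and ranked 15 of 31907 genes in backfat by level per kb of gene length.

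FABP5, the epidermal form that is also made by adipocytes and macrophages, is on the same chromosome (chr4:55277831-55282585, 4 exons, opposite strand). Backfat libraries stood at 712, 507, 800, 834 and 902 CPM and liver libraries at 6.33, 14.8, 6.03, 9.16 and 7.43 CPM for boars 65, 67, 69, 71 and 72. Boar 67 had the lowest backfat and the highest liver value, and the tissues did not overlap. Means of 751 ± 153 and 8.76 ± 3.61 CPM gave a log2 fold change of 6.42 with a standard error of 0.36 (FDR 3.05e-08), and of 6.66 without liver 67. A sum of 8 macrophage markers was lower in backfat (343 to 608 CPM) than in liver (1479 to 1965 CPM). CD14 was the largest part of it in liver, at 397 to 1063 CPM, against 21.8 to 40.3 CPM in backfat. CD163, MARCO, AIF1, C1QA and C1QB were also lower in backfat, while CSF1R (FDR 0.403) and CD68 (FDR 0.11) did not pass the FDR threshold. The part of macrophages in the FABP5 levels was not tested.

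FABP3, the form known from heart and skeletal muscle, lies at chr6:87943003-87950708 with 4 exons. It stood at 165, 104, 258, 271 and 228 CPM in backfat and at 2.09, 1.92, 1.85, 5.31 and 3.17 CPM in liver of boars 65, 67, 69, 71 and 72. Backfat 67 was the lowest backfat library and still far above liver 71, the highest of the liver libraries. Backfat exceeded liver by 6.17 ± 0.41 (standard error) on the log2 scale (FDR 1.21e-07). Skeletal muscle markers varied widely among the backfat libraries. Over 6 genes they summed to 438, 122, 172, 31.1 and 12.4 CPM in boars 65, 67, 69, 71 and 72. The part of muscle in the FABP3 levels of backfat was not tested.

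FABP1, the liver form, showed the opposite pattern. Its difference and that of FABP4 were the largest of the 10, and their order in size turned with the scaling (-11.06 for FABP1 and 11.27 for FABP4 by library size alone). The gene lies at chr3:57850511-57854966. Liver libraries of boars 65, 67, 69, 71 and 72 stood at 1003, 413, 1305, 1784 and 1523 CPM, and backfat libraries at 0.0451, 0.0153, 1.55, 0.0541 and 0.120 CPM. Liver 67 was the lowest of the liver libraries. In backfat the values came from 4, 1, 92, 3 and 7 counts, so that backfat 69 supplied most of the backfat counts of this gene. The log2 fold change was -11.74 with a standard error of 1.32 (FDR 9.69e-06), the widest error among the members, and it was -14.31 without backfat 69 and -12.03 without liver 67. All 8 hepatocyte markers had at least 10 counts in backfat 69, as did 5 to 6 of the 8 in each of the other backfat libraries. Each of the 8 had its highest backfat value in backfat 69. CPS1, an enzyme of the urea cycle in hepatocytes, was at 0.00 CPM in the median backfat library and reached 0.488 CPM. How far these markers account for FABP1 in backfat 69 was not tested.

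**Figure D1:**
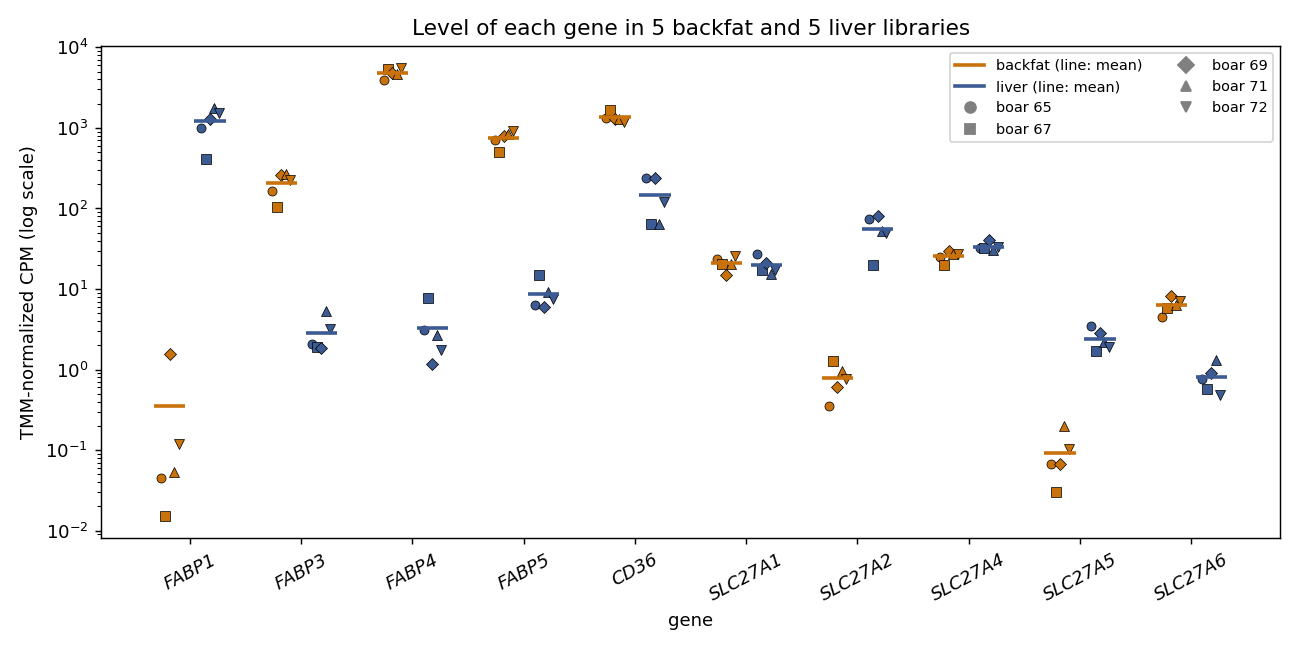
TMM-normalized CPM on a log axis for each of the 10 genes, with 1 symbol per boar and the mean of 5 libraries as a line, backfat in orange and liver in blue. FABP3, FABP4, FABP5, CD36 and SLC27A6 lie higher in every backfat library, FABP1, SLC27A2 and SLC27A5 lie higher in every liver library, and SLC27A1 overlaps between the tissues; backfat 69 stands at 1.55 CPM for FABP1, above the other 4 backfat libraries.

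CD36, the fatty acid translocase of adipocytes, endothelium and macrophages, was higher in backfat and also well detected in liver. The gene lies at chr9:99685748-99782296. Backfat libraries stood at 1312, 1668, 1294, 1284 and 1186 CPM and liver libraries at 236, 64.5, 242, 63.4 and 119 CPM for boars 65, 67, 69, 71 and 72. Liver values fell into a high pair (boars 65 and 69), a low pair (boars 67 and 71) and boar 72 between them, and the highest liver library was far below the lowest backfat library. Means of 1349 ± 185 and 145 ± 88.9 CPM gave a log2 fold change of 3.22 with a standard error of 0.43 (FDR 4.47e-05). A sum of 7 endothelial markers was also higher in backfat (1263 to 1768 CPM) than in liver (286 to 684 CPM). PECAM1 was the largest part of it in backfat, at 376 to 714 CPM. PECAM1, CDH5, KDR, TIE1, CLDN5 and ROBO4 passed the FDR threshold toward backfat. EGFL7 did not (log2 fold change 0.25, FDR 0.622), and its highest liver value, 408 CPM, exceeded its highest backfat value, 271 CPM. Among the liver libraries, the share of counts on mitochondrial genes ran opposite to CD36, at 6.97% and 6.38% in boars 65 and 69, 11.9% in boar 72 and 20.2% and 44.5% in boars 71 and 67. The part of endothelial cells in the tissue difference, and that of the mitochondrial share in the spread of the liver values, was not tested.

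The tissue difference was not of 1 size among the backfat members. To compare members without scaling between libraries, the log2 ratio of the counts of a pair of genes was taken within each library, and its tissue difference was tested by a two-sided exact permutation test over the 252 ways to divide 10 libraries into 2 groups of 5, adjusted by Benjamini-Hochberg for 6 pairs. The smallest p that 5 against 5 libraries can give is 0.00794. Relative to FABP4, the difference was smaller for FABP5 (-4.33 on the log2 scale), FABP3 (-4.61) and CD36 (-7.36), each with an exact permutation p of 0.00794, an adjusted p of 0.0119 and the same direction in 5 of 5 boars. The log2 ratio of CD36 to FABP4 counts was 5.52 ± 1.76 in liver and -1.84 ± 0.24 in backfat, so that the gene with more counts differed between the tissues. Counts are not corrected for gene length. Per kb of RefSeq exon length, the liver ranges of CD36 (4.37 to 16.7 CPM) and FABP4 (1.37 to 8.96 CPM) overlapped. The tissue difference of this log2 ratio was -7.98 without liver 67 and -6.83 without liver 69. With libraries paired by boar, a sign-flip test of 5 pairs cannot go below 0.0625, and each of these differences stood there, at an adjusted exact p of 0.0938.

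Among the transport proteins, SLC27A2 and SLC27A5 were higher in liver. SLC27A2 (FATP2), a very long-chain acyl-CoA synthetase of liver and kidney at chr1:121530449-121578994, stood at 74.2, 19.7, 80.1, 51.8 and 49.5 CPM in liver and at 0.350, 1.28, 0.606, 0.955 and 0.755 CPM in backfat of boars 65, 67, 69, 71 and 72. As for FABP1, liver 67 was the lowest liver library. The log2 fold change was -6.13 with a standard error of 0.46 (FDR 3.16e-07), and -6.38 without liver 67.

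SLC27A5 (FATP5), the bile acyl-CoA synthetase at chr6:63068880-63075246, was scarce in both tissues. Liver libraries stood at 3.52, 1.70, 2.82, 2.21 and 1.90 CPM, and no backfat library exceeded 0.198 CPM. Liver was 25.9-fold higher, a log2 fold change of -4.70 with a standard error of 0.48 (FDR 4.5e-06). FABP1 and SLC27A5 had fewer than 10 counts in at least 1 backfat library and so passed the filter on low counts through liver, where they are high. The ratio of SLC27A2 to SLC27A5 differed between tissues by -1.32 on the log2 scale, with overlap between tissues, the same direction in 4 of 5 boars and an adjusted exact permutation p of 0.0762.

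SLC27A6 (FATP6), best known from heart, was the only SLC27A gene among the 5 members that was called higher in backfat. It lies at chr2:131749759-131848278, where it overlaps a non-coding RefSeq gene, LOC110259470, and the counting did not use strand. Backfat libraries stood at 4.44, 5.80, 8.09, 6.29 and 7.02 CPM and liver libraries at 0.773, 0.567, 0.913, 1.30 and 0.488 CPM for boars 65, 67, 69, 71 and 72. All libraries were low, and the tissues were separate. Backfat was 7.83-fold higher, a log2 fold change of 2.97 with a standard error of 0.32 (FDR 6.65e-06).

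SLC27A1 (FATP1), the insulin-responsive transporter of fat and muscle at chr2:60203374-60235689, overlapped between the tissues, at 21.1 ± 4.05 CPM in backfat and 19.6 ± 4.72 CPM in liver. Backfat libraries ranged from 15.0 to 25.9 CPM and liver libraries from 15.4 to 27.3 CPM, and backfat was the higher tissue in 3 of 5 boars. Their log2 fold change was 0.10 with a standard error of 0.20 (FDR 0.692). Scaled by library size without TMM it was 0.78 (FDR 0.0182), near the 0.72 by which that scaling moved the median of all genes. The ratio of SLC27A6 to SLC27A1 differed between tissues by 2.90 on the log2 scale (exact permutation p = 0.00794, adjusted p = 0.0119, 5 of 5 boars, and an adjusted exact p of 0.0938 with libraries paired by boar).

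SLC27A4 (FATP4), the broadly expressed member at chr1:268773792-268788208, stood at 25.2, 19.6, 30.0, 27.3 and 26.9 CPM in backfat and at 32.5, 32.0, 40.2, 30.9 and 32.8 CPM in liver of boars 65, 67, 69, 71 and 72. The tissues were adjacent without overlap, and liver was the higher tissue in 5 of 5 boars. The log2 fold change was -0.38 with a standard error of 0.15, past the FDR threshold (FDR 0.0455) and far below the fold threshold. When backfat 65, 67, 71 or 72 or liver 65 or 69 was left out, its FDR was 0.0724 to 0.111, above the threshold. With the boar as a block the FDR was 0.0533, and scaling by library size without TMM turned the log2 fold change to 0.31 (FDR 0.162), as the median of all genes moves toward backfat under that scaling. The ratio of SLC27A4 to SLC27A1, which no scaling between libraries touches, differed by -0.50 on the log2 scale (adjusted exact permutation p = 0.0794, 4 of 5 boars). It was -0.67 without backfat 69 (adjusted exact p = 0.0286) and -0.64 without liver 65 (adjusted exact p = 0.0476).

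**Figure D2:**
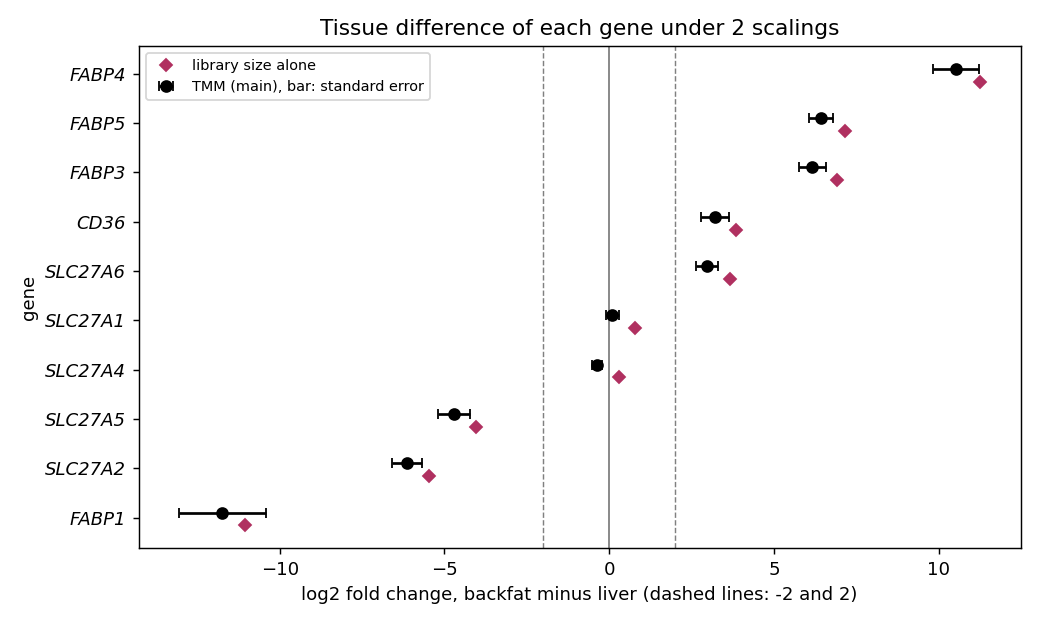
Log2 fold change of each gene, backfat minus liver, by the edgeR quasi-likelihood fit with TMM (black, bar for the standard error) and with library size alone (red), with dashed lines at -2 and 2. The genes run from 10.52 for FABP4 to -11.74 for FABP1, and SLC27A4 is the gene that lies on different sides of 0 under the 2 scalings.

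By the FDR threshold alone, 9 of the 10 members differed, 5 higher in backfat (28.0% of all tested genes) and 4 in liver (27.0%), where 55.0% of all tested genes differed. By library size alone the split was 6 and 3, with SLC27A1 gained for backfat and SLC27A4 lost for liver. In 9 of the 10 the 5 backfat libraries did not overlap the 5 liver libraries, which was the case for 42.6% of all tested genes, 22.9% in the direction of backfat and 19.7% in that of liver. The median size of the log2 fold change was 5.41 over the members and 0.81 over all tested genes. These contrasts with all genes carry the limits given for the calls, from the choice, matching and filtering of the members. Under a test of whether the fold itself exceeds the threshold (edgeR glmTreat), 8 members and 14.8% of all tested genes were called.

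Levels of different genes were compared per kb of the gene length given in the count table. In backfat the order of mean levels was FABP4 (3109 CPM per kb), FABP5 (210), CD36 (192) and FABP3 (179), followed by SLC27A1 (4.14), SLC27A4 (3.57), SLC27A6 (1.52), SLC27A2 (0.0987), FABP1 (0.0915) and SLC27A5 (0.0173). The ranges over libraries of FABP5, CD36 and FABP3 overlapped from neighbour to neighbour, as did those of SLC27A1 and SLC27A4, and those of SLC27A2, FABP1 and SLC27A5. FABP4 was above every other member in every backfat library. FABP5, CD36 and FABP3 ranked 156, 168 and 179 among 31907 genes in backfat.

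In liver the order was FABP1 (310 CPM per kb), CD36 (20.7), SLC27A2 (6.89), SLC27A4 (4.66), SLC27A1 (3.86), FABP3 (2.50), FABP5 (2.44) and FABP4 (2.12), then SLC27A5 (0.451) and SLC27A6 (0.194). FABP1 stood alone at the top, at rank 161 of all genes, and each neighbour from CD36 to FABP4 overlapped the next. CD36 was thus second in liver by its mean level although it was called higher in backfat. The order rests on the gene lengths: with exon lengths from RefSeq, which are shorter for FABP5 (682 in place of 3583 bases) and longer for CD36 (14502 in place of 7012 bases), CD36 came behind FABP3 in backfat and behind SLC27A2 and FABP5 in liver.

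Within the FABP genes measured, FABP4 made up 88.8% ± 2.85 of the summed level per kb in backfat, FABP5 6.03% ± 1.23 and FABP3 5.15% ± 1.72. With RefSeq lengths these shares were 78.0%, 15.5% and 6.44%. FABP1 made up 96.8% ± 3.41 of the sum in liver, from 90.7% to 98.8% over the 5 libraries. Each tissue thus had 1 binding protein gene that outweighed the others, and the sum of the 4 genes was 3498 ± 391 CPM per kb in backfat and 317 ± 134 in liver.

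No single transport protein gene outweighed the others in the same way. In backfat, SLC27A1 took 44.2% ± 7.23, SLC27A4 38.2% ± 4.87 and SLC27A6 16.3% ± 3.45 of the summed level of the 5 SLC27A genes, and in liver, SLC27A2 took 41.1% ± 10.4, SLC27A4 30.3% ± 6.98 and SLC27A1 24.6% ± 4.63. The sum was 9.35 ± 0.832 CPM per kb in backfat and 16.1 ± 4.12 in liver, but in TPM it was 28.8 ± 4.25 in backfat and 25.7 ± 14.4 in liver, so no direction is given for it. With RefSeq lengths the share of SLC27A2 in liver was 67.1%, SLC27A4 came before SLC27A1 in backfat (48.4% and 42.9%), and SLC27A6 took 4.37% in backfat, close to the 3.86% of SLC27A2.

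**Figure D3:**
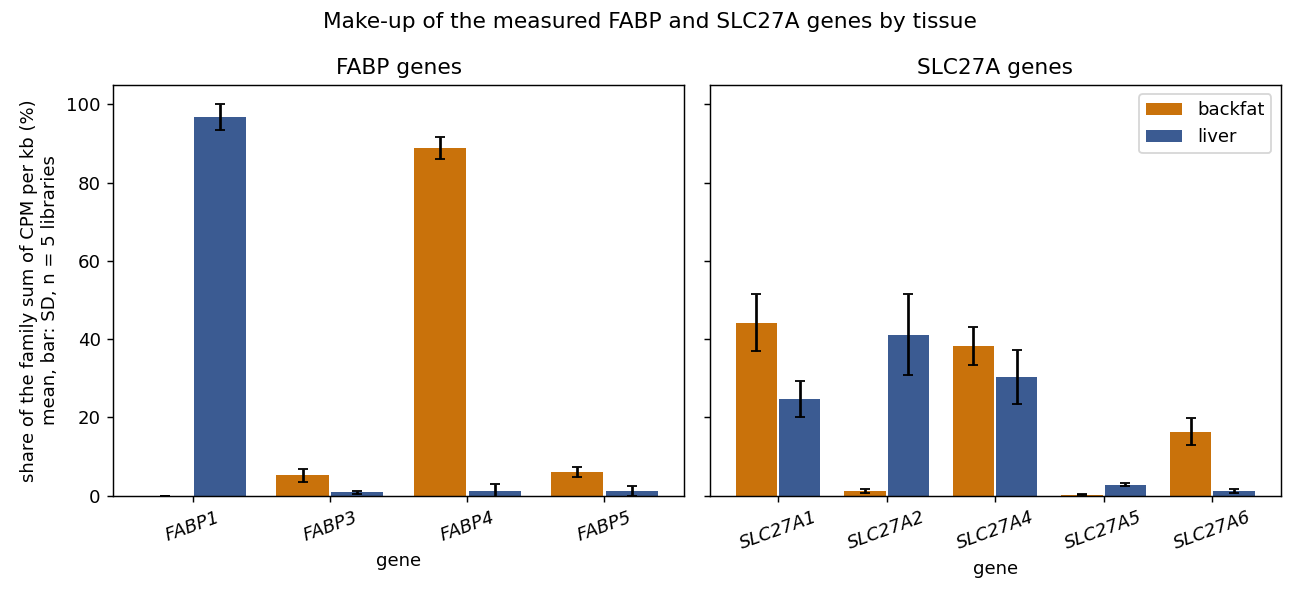
Share of each gene in the summed level (CPM per kb) of the 4 FABP genes and of the 5 SLC27A genes, as mean and SD over 5 libraries per tissue. FABP4 takes 88.8% of the FABP sum in backfat and FABP1 96.8% in liver, while the SLC27A sum is divided among SLC27A1, SLC27A4 and SLC27A6 in backfat and among SLC27A2, SLC27A4 and SLC27A1 in liver.

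Other genes of fatty acid uptake, binding and activation were taken as a list of 23, of which 21 had an identifier and 17 were tested. Of these 17, 4 were called for backfat and 1 for liver (29.4%, against 22.3% of all tested genes), and the median log2 fold change was -0.40. The called genes were CAV1, the caveolin of adipocyte and endothelial membranes (94.5 ± 29.8 against 1.45 ± 1.11 CPM, 64.2-fold, FDR 2.67e-06), PMP2, the myelin FABP (8.09 ± 3.79 against 0.0603 ± 0.103 CPM, 7.06, FDR 8.76e-06), SLC27A3 (FATP3, log2 fold change 2.32, FDR 0.00188) and FABP9 (5.84, FDR 4.47e-05) in backfat, and ACSL5, an acyl-CoA synthetase, in liver (31.0 ± 2.34 against 188 ± 42.4 CPM, -2.60, FDR 1.86e-07). The calls for backfat had fewer than 10 counts in at least 1 liver library and passed the filter on low counts through backfat, and a filter that asked for 10 counts in each of the 10 libraries left 0 of them to test. With library size alone the list had 5 calls for backfat and 0 for liver, and with the boar as a block 5 and 1. A further 2 genes were chosen after their values were seen. ACSL1, the acyl-CoA synthetase of both fat and liver, was at 582 ± 198 CPM in backfat and 767 ± 391 CPM in liver (log2 fold change -0.40, FDR 0.451), and DBI, the acyl-CoA-binding protein, was just under the fold threshold at 1.95 (869 ± 221 against 225 ± 103 CPM, FDR 0.00028). FABP2, FABP6 and FABP7, the forms of intestine, ileum and brain, had at most 13 counts in any library, and they and ACSL6 were not tested.

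Of 8 genes of the PPAR and RXR receptors and their coactivators, PPARG and RXRG were called higher in backfat, and PPARA and PPARGC1A higher in liver, 4 of 8 against the 22.3% of all tested genes. PPARG, the receptor that drives adipocyte differentiation, stood at 161 ± 34.4 CPM in backfat and 0.742 ± 0.576 CPM in liver (log2 fold change 7.78, FDR 1.11e-07), and RXRG at 9.68 ± 3.84 and 0.211 ± 0.194 CPM (5.50, FDR 6.06e-06). PPARA, the receptor of hepatic fatty acid oxidation, stood at 5.82 ± 2.63 CPM in backfat and 24.6 ± 15.8 CPM in liver (-2.08, FDR 0.00198, with overlapping libraries), and the coactivator PPARGC1A at 0.426 ± 0.149 and 19.1 ± 7.84 CPM (-5.47, FDR 1.02e-07). Without backfat 69, backfat 72, liver 65 or liver 69, the calls for liver in this list dropped from 2 to 1, as they did with the boar as a block, with limma-voom, with glmTreat and with library size alone. PPARG and RXRG had fewer than 10 counts in at least 1 liver library and passed the filter on low counts through backfat. PPARD, RXRA, RXRB and PPARGC1B passed the FDR threshold but not the fold threshold, with log2 fold changes of 1.17, -1.33, 0.77 and 1.45.

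**Figure D4:**
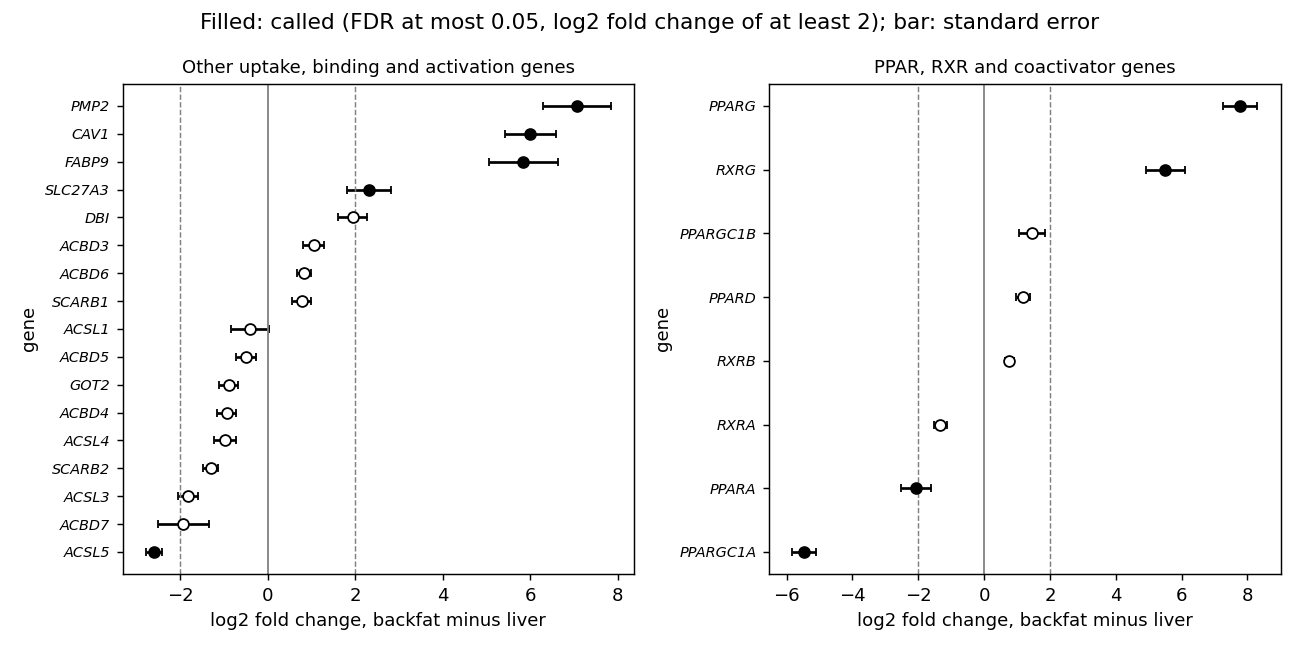
Log2 fold change with its standard error for 17 other genes of fatty acid uptake, binding and activation (left) and for 8 PPAR, RXR and coactivator genes (right), filled where called. PMP2, CAV1, FABP9 and SLC27A3 are called higher in backfat and ACSL5 in liver, and PPARG (7.78) and PPARGC1A (-5.47) are the extremes of the receptor list.

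FABP4 and FABP5 lie close together on chromosome 4 with PMP2 between them, 19.9 kb from the start of FABP4, while FABP5 starts at 181.4 kb. All 3 were called higher in backfat. Of all tested genes, 11.1% were called higher in backfat and 11.2% higher in liver. PMP2 had 0 counts in at least 1 liver library and passed the filter on low counts through backfat. The other protein-coding RefSeq genes within 500 kb of FABP4 or FABP5 were looked up after the values were seen. Of 7, 6 were tested, 0 were called higher in backfat and 1, CHMP4C, was called higher in liver (log2 fold change -3.12, FDR 0.000972). With 6 genes, such counts are too few to set apart from the shares over all tested genes. The remaining 5 (SNX16, ZFAND1, IMPA1, PAG1 and ZNF704) had log2 fold changes of 1.37, -0.95, -0.85, 0.15 and 0.41.

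**Figure D5:**
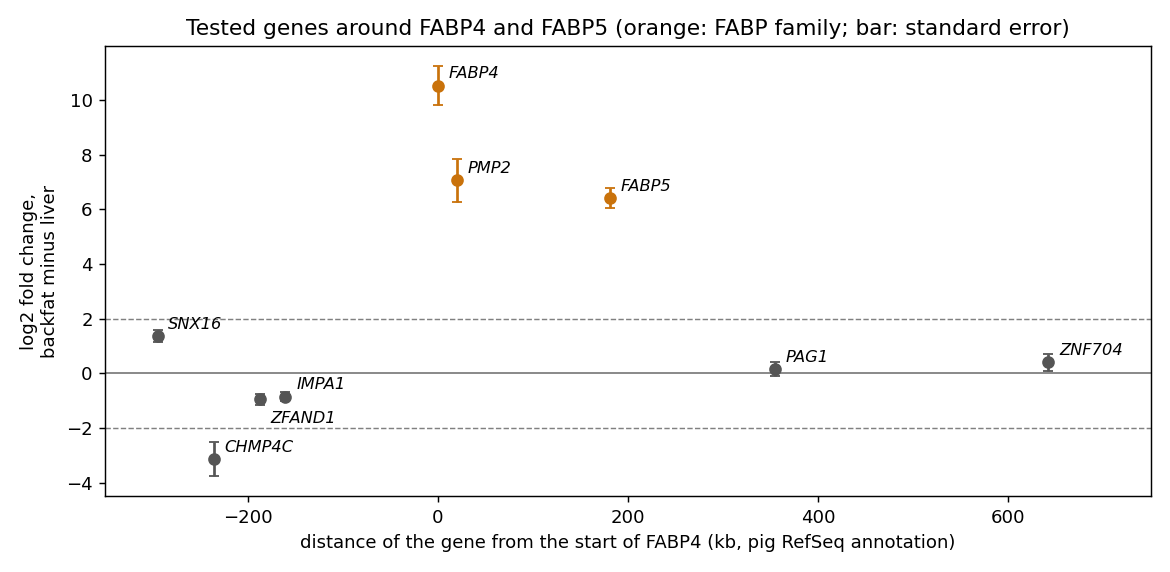
Log2 fold change, backfat minus liver, with its standard error for the tested genes around FABP4 and FABP5, against the distance of each gene from the start of FABP4 in kb, with dashed lines at -2 and 2. The 3 FABP family genes, in orange, lie between 6.42 and 10.52, and the other 6 lie between -3.12 and 1.37.

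The genes whose levels most resembled those of FABP1 and FABP4 over the 10 libraries were taken by Pearson r of log2(CPM + 1). They came from 11591 tested genes with a symbol and a mean of at least 1 CPM, members left out. For FABP1 they were LECT2 (r = 0.9997), GJB1 (0.9994) and HPX (0.9994), and for FABP4 they were COL5A3 (0.9981), BTNL9 (0.9980) and ECM2 (0.9980). Such values describe 2 separate clusters of libraries, one for each tissue, and 925 of the 11591 genes for FABP1 and 1010 for FABP4 had an r above 0.95.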

How the data were processed

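Poly(A) RNA of 10 bulk tissue samples was sequenced. The authors trimmed reads with Trimmomatic, mapped them with HISAT2 to Sscrofa11.1 and counted them with featureCounts 2.0.1 against Ensembl release 99, and the deposited values are raw counts per gene, with strand not used. Methylation calls were not used, as they carry no genomic position. Tissue was taken from the labels and boar numbers from the column names, and 0 columns were left out.

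Symbols came from a RefSeq-based table, which names 15029 of 31907 identifiers. FABP1 and CD36 were identified by the study's supplementary gene list, in which 1904 of the 1962 pairs also in the table had the same symbol. That list holds genes the study found differentially methylated and expressed between backfat and liver. A member missing from the table could thus be matched only if the study had already listed it. Positions and windows are from RefSeq on Sscrofa11.1, and all 10 members were matched. The promoter windows of 2 members are not reported here.

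Counts were filtered (filterByExpr), normalized by TMM and tested with edgeR 4.0.16 (glmQLFit, glmQLFTest, tissue as the only term) in R 4.3.3, with Benjamini-Hochberg adjustment over 16275 genes. Ratios of members had 0.5 added to each count. Alternatives were DESeq2 1.42.0, limma 3.58.1 (voom), glmTreat, other scalings and filters, the boar as a block, other lengths and leaving out libraries. Simulated counts for backfat against liver had 200 of 16275 genes changed by a log2 fold change of 3. The fit with TMM gave 191 of them back, with 5 unchanged genes called. With library size alone the values were 190 and 5. A change in as large a share of genes as in the real counts, where 55.0% passed the FDR threshold, was not tested. Libraries with the same number in their column names were taken to come from the same animal, which the labels do not state. Their deviations from the tissue means correlated at 0.22, 0.09, 0.03, 0.17 and 0.13 for boars 65, 67, 69, 71 and 72. The liver library of the same number was the best match of the backfat library for boars 65, 71 and 72, and not for 67 and 69. No 2 libraries were near identical. Replicates are separate animals.

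Members and lists were chosen with earlier results of these data known. Named were all members, up to 8 called genes of the 2 context lists by level (FABP9 was added as the ninth), and the 3 genes most like FABP1 and FABP4. Lists of hepatocyte, adipocyte, endothelial, macrophage, skeletal muscle and keratinocyte markers were summed in CPM. The sum of 4 keratinocyte genes was 6.96 to 9.39 CPM in backfat and 50.2 to 134 CPM in liver. Most of the liver sum was DSP, at 42.6 to 127 CPM, so it is not read as keratinocyte content. KRT10 was at 6.04 to 7.45 CPM in backfat and 6.50 to 15.2 CPM in liver (FDR 0.12). Figures were drawn in Python 3.11.15 with matplotlib 3.10.9.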

Additional observations from a re-analysis of the deposited data

Results flagged for a closer look

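Within each tissue, the highest and lowest library of each member was compared with the other 4 by Dixon's ratio of gap to range. Of 20 groups, 4 held a library past its critical value, where chance gives about 1 in 20. FABP1 in backfat 69 was at 1.55 CPM, above 0.120 CPM in the next library. FABP4 in liver 67 was at 7.80 CPM, above 3.09 CPM in the next. CD36 in backfat 67 was at 1668 CPM, above 1312 CPM in the next, and backfat 67 also had the highest sums of adipocyte (9410 CPM) and macrophage markers (608 CPM). The members of these lists did not move as 1: 5 of 7 adipocyte and 2 of 8 macrophage markers had their highest backfat value there. CIDEC (296 CPM) and LEP (40.2 CPM) had their lowest backfat value in the same library. SLC27A4 in liver 69 was at 40.2 CPM, above 32.8 CPM in the next. The causes were not tested.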

How the results depend on the processing

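The number of members called was 8 in every setting except the filter of at least 10 counts in every library, where it was 6, as FABP1 and SLC27A5 were then not tested. The same filter, which takes out genes near 0 in 1 tissue, left 13026 genes to test. With it, 1 gene of the uptake and binding list, 2 of the receptor list and 1852 of the 13026 genes were called. The main fit called 3633 of 16275 genes and glmTreat 2413 of 16275. Library size alone turned SLC27A4 to 0.31 and lowered the share of calls higher in liver from 50.1% to 31.8%. The replicate block called 8 members, 6 genes of the uptake and binding list and 3 of the receptor list, and 8 members in place of 9 passed the FDR alone. With libraries paired by boar, the differences of FABP5, FABP3 and CD36 from FABP4 (-4.33, -4.61 and -7.36) and of SLC27A6 from SLC27A1 (2.90) had an adjusted exact p of 0.0938, since 5 pairs cannot go below 0.0625. The difference of SLC27A2 from SLC27A5 was -3.22 with 1 CPM added to each level (adjusted exact p = 0.00952).

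Without 1 library in turn, 8 to 9 members passed the FDR alone, 5 to 7 genes of the uptake and binding list, 3 to 4 of the receptor list and 3716 to 3964 of all genes were called. The differences from FABP4 ran from -4.51 to -4.16 for FABP5, -5.11 to -4.35 for FABP3 and -7.98 to -6.83 for CD36. They ran from -1.82 (without backfat 67, adjusted exact p = 0.019) to -1.11 for SLC27A2 to SLC27A5, from -0.67 to -0.41 for SLC27A4 to SLC27A1 and from 2.69 to 3.17 for SLC27A6 to SLC27A1. The log2 fold change of FABP1 ran from -14.31 to -11.42.

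Levels per length moved with the length and unit. With RefSeq lengths FABP4 was at 5551 and CD36 at 93.0 CPM per kb in backfat, FABP1 at 543 and SLC27A2 at 24.6 in liver, and the shares of FABP4 in backfat and SLC27A2 in liver were 78.0% and 67.1%. In TPM, FABP4, CD36 and SLC27A1 were at 9563, 602 and 12.9 in backfat, and FABP1, CD36 and SLC27A2 at 467, 36.1 and 11.4 in liver. In backfat, 1 to 92 counts of FABP1 per library limit its fold change.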
